A study of Mus musculus with 21 samples.

Results

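The cells of the proximal tubule take back the proteins, vitamins and hormones that pass the glomerular filter. At their apical membrane, megalin (Lrp2), a giant receptor of the LDL receptor family, and cubilin (Cubn), a receptor without a membrane anchor of its own, bind filtered albumin, vitamin-binding proteins and many small proteins. Amnionless (Amn) anchors cubilin and carries it to the surface, Dab2 is the adaptor that links the cytoplasmic tails of the receptors to the clathrin coat, and the receptor-associated protein RAP (Lrpap1) is a chaperone of the endoplasmic reticulum that keeps new megalin from binding ligands too early. These 5 genes were chosen by symbol, out of 54123 genes in the table, and all 5 were measured in all 21 libraries.

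The mice carried the label wild-type and were adult males of the C57BL/6 strain. Kidney tubular epithelial cells (TECs) and neutrophils (PMNs, labelled as coming from blood) were collected 24 h after renal ischemia-reperfusion injury (IRI), in which the renal vessels were clamped and released, or after a sham operation. Before surgery the animals had received remote ischemic preconditioning (RIPC, repeated inflation of a cuff around a hind limb) or no preconditioning (control), so that each cell type had 4 groups: sham control, sham RIPC, IRI control and IRI RIPC. For TECs these held 3, 3, 2 and 3 libraries, and for PMNs 2, 3, 2 and 3. TECs were enriched with beads against prominin-1, a surface protein that other kidney cells can also carry, so the libraries are not pure proximal tubule. In such bulk libraries, fewer cells of a type and less RNA per cell cannot be told apart.

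Each library was counted as the sum of its 2 deposited files, which gave between 20881334 and 30507235 reads per PMN library and between 21479605 and 51624602 per TEC library. Levels are given as CPM, counts scaled to library size, on 1 scale for all 21 libraries (TMM normalisation), and levels of different genes were compared only as TPM, which corrects for length. Log2 fold changes, their standard errors (SE) and adjusted p values (Benjamini-Hochberg, threshold 0.05) come from edgeR's quasi-likelihood test over all genes, in 1 fit per cell type.

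The labelled cell types were checked against marker lists. The summed CPM of 12 proximal tubule markers was 9628 to 17876 in the 6 sham TEC libraries and 1213 to 8351 in the 5 IRI TEC libraries, with no marker at 0. The 9 neutrophil markers summed to 6024 CPM or more in every PMN library (at most 33451) and stayed between 1.62 and 109 CPM in TECs. The PMN libraries also held RNA of other kinds: the same 12 tubule markers summed to 316 to 4533 CPM, with at most 1 of the 12 at 0, and 8 macrophage markers summed to 725 to 8764 CPM, against 3.09 to 33.3 in TECs. Libraries that stood apart are named here because several results rest on them. PMN sham control library 2 had the highest tubule sum of the PMNs, TEC sham control library 1 the lowest of the sham TECs, and TEC IRI RIPC library 3 the highest of the IRI TECs. TEC sham control library 2 was the deepest library but had the fewest detected genes, 14326 against 20638 to 24331 in the other TECs.

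The sequences before the transcription starts show how unlike the members' promoters are. The gene for megalin lies on chromosome 2 (GRCm38, chr2:69424340-69586065, minus strand), as does that for cubilin (chr2:13276338-13491813, minus strand). Amn lies at chr12:111271095-111276426 on the plus strand, Dab2 at chr15:6299788-6440712 on the plus strand and Lrpap1 at chr5:35091501-35105766 on the minus strand, all as given by Gencode M21. RefSeq (GRCm38.p6) lists 1 start for each of the other 4 genes and 2 for Dab2. The windows printed here are the part of the 250 bases before a RefSeq start that lies outside every Gencode exon of the gene: chr15:6299539-6299787 for the upstream Dab2 start, chr15:6386498-6386597 for its downstream start, chr2:69586066-69586279 for Lrp2 and chr2:13491877-13492126 for Cubn. Each is written 5′ to 3′ on the strand of its gene, with motif matches in capitals.
Dab2 upstream start: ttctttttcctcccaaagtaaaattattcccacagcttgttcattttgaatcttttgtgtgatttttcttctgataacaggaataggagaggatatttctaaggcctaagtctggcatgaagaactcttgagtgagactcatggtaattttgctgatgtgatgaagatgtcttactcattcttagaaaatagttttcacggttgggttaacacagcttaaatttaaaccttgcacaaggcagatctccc
Dab2 downstream start: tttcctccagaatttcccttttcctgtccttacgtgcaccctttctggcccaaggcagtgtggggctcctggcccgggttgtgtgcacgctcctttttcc
Lrp2: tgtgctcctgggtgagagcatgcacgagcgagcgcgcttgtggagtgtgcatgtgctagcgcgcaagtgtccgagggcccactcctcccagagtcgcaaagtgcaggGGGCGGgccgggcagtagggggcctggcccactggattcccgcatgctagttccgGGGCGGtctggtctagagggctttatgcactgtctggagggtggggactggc
Cubn: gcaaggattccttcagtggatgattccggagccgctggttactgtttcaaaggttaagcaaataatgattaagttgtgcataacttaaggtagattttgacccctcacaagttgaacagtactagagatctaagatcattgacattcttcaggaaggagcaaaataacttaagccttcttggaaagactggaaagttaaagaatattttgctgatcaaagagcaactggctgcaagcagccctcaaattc
The search covered 3 motifs on both strands of the whole 250-base windows. The GC box (GGGCGG) was found in 32.7% of 32851 windows, the E box (CACGTG) in 6.02% and the TATA box (TATAAA) in 12.4%. The upstream Dab2 window was 36.8% G plus C, against a median of 52.4% over all windows. The downstream Dab2 window was 60.0% G plus C, and Gencode counts 150 of its 250 bases, which are not printed, as first exon. Lrp2 had 2 GC boxes in a window of 66.4% G plus C, Lrpap1 had 5 GC boxes and Amn had 1 GC box and 1 E box. The Cubn window, 39.6% G plus C, and both Dab2 windows held none of the 3 motifs.

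The first question was what IRI did to the receptors in the tubule cells. Megalin and RAP transcripts fell in TECs after IRI, cubilin and amnionless transcripts were lower in every IRI library than in every sham library but missed the adjusted threshold, and the total of Dab2 transcripts gave a difference near 0. In the test averaged over RIPC and control animals, 2 of the 5 members passed, both lower. Over all 25917 genes, 1.4% were called in this comparison, 1.15% as lower. The median log2 fold change of the 5 members was −1.71, and that of all genes tested was 0.15 (0.28 with the size factors of DESeq2).

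Lrp2 was at 219, 1251 and 649 CPM in the 3 sham control TEC libraries and at 551, 634 and 550.4 CPM in the 3 sham RIPC libraries. After IRI it was at 151 and 60.3 CPM in the controls and at 73.0, 97.5 and 180 CPM in the RIPC animals. All 5 IRI values lay below all 6 sham values, and sham control libraries 1 and 2 were the lowest and the highest of the sham values. The means were 643 ± 337 CPM (SD, n = 6) and 112 ± 51.3 CPM (SD, n = 5), and the fitted log2 fold change was −2.57 (SE 0.49, 95% confidence interval −3.61 to −1.53, adjusted p = 0.0198, edgeR), a 5.94-fold lower level. Of all genes tested, 3.16% were separated in the same direction, with every IRI library below every sham library. The adjusted p of Lrp2 was 0.0625 without sham control library 2, 0.0518 without sham RIPC library 1 and 0.0570 without sham RIPC library 2, and stayed under 0.05 without each of the other 8.

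Cubn was at 147, 309 and 225 CPM in the sham control TECs and at 199, 332 and 181 CPM in the sham RIPC TECs. The IRI controls gave 69.2 and 20.4 CPM, and the IRI RIPC libraries 40.8, 7.36 and 102 CPM. The 5 IRI values again all lay below the 6 sham values, and IRI RIPC libraries 2 and 3 marked the ends of the IRI range. The log2 fold change was −2.35 (SE 0.61, interval −3.65 to −1.05) with an adjusted p of 0.0805 in edgeR. Without IRI RIPC library 2 or IRI RIPC library 3 the adjusted p was 0.0482 and 0.0164. Without IRI control library 1, which left 1 library in that group, the log2 fold change was −2.905. In the DESeq2 Wald test the adjusted p was 0.00609, where 2234 of 25917 genes were called.

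Amn, the anchor of cubilin, was at 160.4, 228 and 278 CPM in the sham control TECs and at 301, 252 and 173 CPM in the sham RIPC TECs. Its IRI values were 98.5 and 41.3 CPM in the controls and 34.3, 60.1 and 132 CPM in the RIPC animals, without overlap with the sham range. The log2 fold change was −1.71 (SE 0.45, interval −2.67 to −0.75, adjusted p = 0.0834, edgeR), and the adjusted p was 0.0224 without IRI RIPC library 3. It was 0.0101 in the DESeq2 Wald test, which called 2234 of 25917 genes.

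Lrpap1, the chaperone, was at 394, 531 and 653 CPM in the sham control TECs and at 599.5, 666 and 485 CPM in the sham RIPC TECs. After IRI it was at 187 and 168 CPM in the controls and at 206, 112 and 303 CPM in the RIPC animals. The ranges did not overlap, and the nearest values were IRI RIPC library 3 and sham control library 1. The fitted log2 fold change was −1.57 (SE 0.34, interval −2.29 to −0.85, adjusted p = 0.0374, edgeR), or 2.97-fold lower. This call depended on single libraries. The adjusted p of Lrpap1 was 0.0647 and 0.0881 without sham control libraries 2 and 3, 0.103, 0.110 and 0.0689 without sham RIPC libraries 1, 2 and 3, and 0.0609 without IRI RIPC library 1. The call was also lost without IRI control library 1 or 2 (−1.60 and −1.57). Those 2 fits left 1 library in that group, and the filter by group kept 32165 and 32130 genes in place of 25917. Over all these fits the log2 fold change of Lrpap1 stayed between −1.74 and −1.43. With the replicate number as a block it was −1.54 (adjusted p = 0.0565).

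Dab2, the adaptor, did not share this separation of the groups. It was at 734, 800.4 and 616 CPM in the sham control TECs, at 542, 628 and 520.1 CPM in the sham RIPC TECs, at 1041 and 867 CPM in the IRI controls and at 510.5, 579 and 363 CPM in the IRI RIPC libraries. The IRI controls lay above all 6 sham libraries, an order not counted over all genes. The IRI RIPC libraries overlapped the sham range or lay below it. The means were 640 ± 109 CPM (SD, n = 6) after sham and 672 ± 276 CPM (SD, n = 5) after IRI, with a log2 difference of 0.07 (SE 0.27, interval −0.52 to 0.65, adjusted p = 1.00, edgeR).

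**Figure D1:**
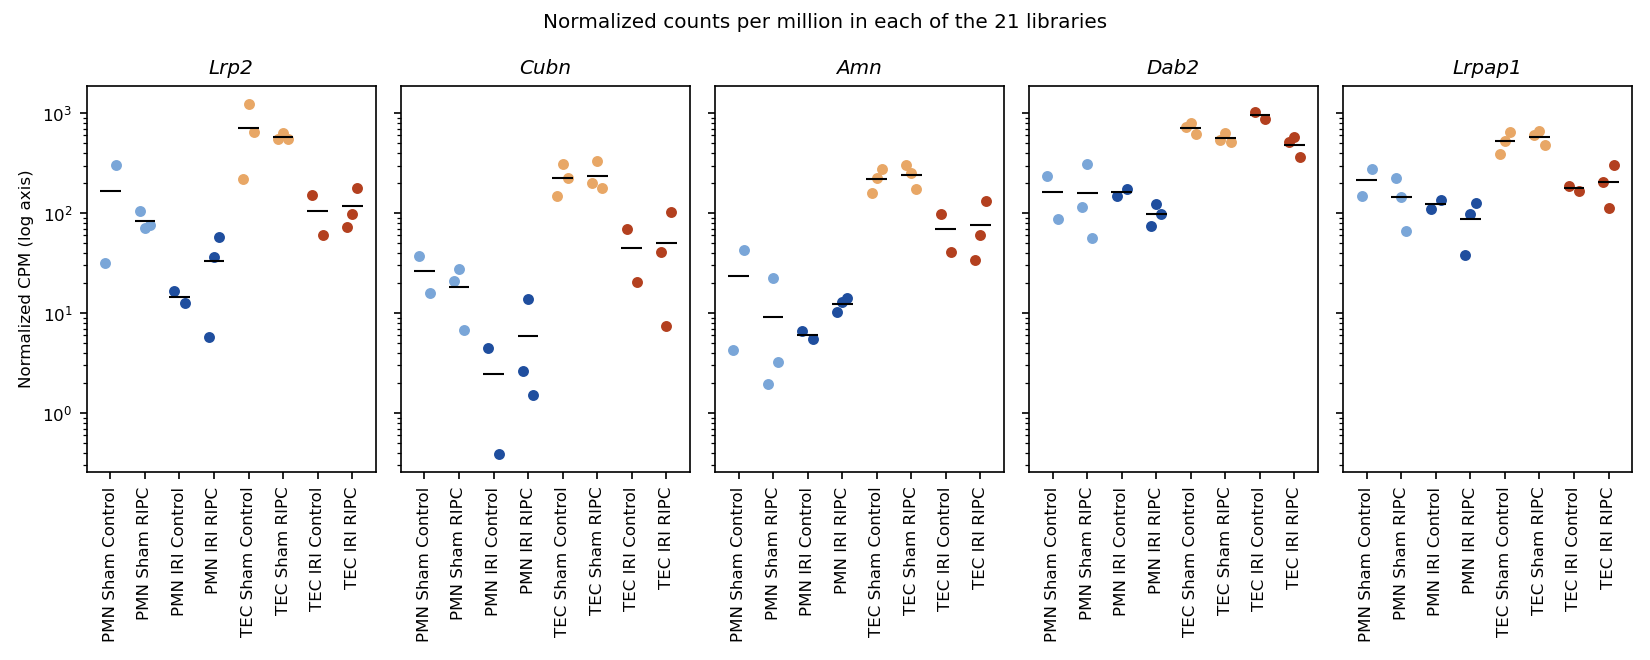
Level of each of the 5 genes in every library (points, CPM on a logarithmic axis) by cell type and group, with the mean of each group as a line. In TECs the 5 IRI points of Lrp2, Cubn, Amn and Lrpap1 lie below the 6 sham points, those of Dab2 do not, and PMN values of Dab2 (56.3 to 307 CPM) lie below every TEC value (363 to 1041 CPM).

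On the length-corrected scale the order of the members shifted between the groups. The median TPM in sham TECs was 229 for Lrpap1, 158 for Amn, 123 for Dab2, 18.5 for Lrp2 and 8.08 for Cubn. In IRI TECs it was 139 for Dab2, 69.5 for Lrpap1, 40.7 for Amn, 3.98 for Lrp2 and 1.66 for Cubn. Lrpap1 was the most abundant member in 5 of 6 sham TEC libraries and Dab2 in 4 of 5 IRI TEC libraries, and Cubn was the least abundant in all 11.

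Within the separate arms the direction was the same for 4 members, with fewer libraries behind each value. Without RIPC (2 IRI against 3 sham libraries) the log2 fold changes were −2.82 for Lrp2, −2.41 for Cubn, −1.73 for Amn, 0.36 for Dab2 and −1.62 for Lrpap1, with adjusted p values of 0.264 to 0.823 (edgeR). With RIPC (3 against 3) they were −2.32, −2.28, −1.69, −0.22 and −1.52 in the same order, with adjusted p values of 0.210 to 0.937. None of the 5 was called in either arm, where 0.00386% and 0.0965% of all genes were called. Other settings did call members. Without the filter on low counts the adjusted p of Lrp2 was 0.00225 without RIPC and 0.00223 with RIPC (edgeR). The DESeq2 Wald test called Lrp2 (adjusted p = 0.0121) and Lrpap1 (0.0269) without RIPC and Lrpap1 (0.0383) with RIPC. With apeglm shrinkage in DESeq2, at an s value under 0.01, Lrp2, Amn and Lrpap1 were called in both arms and Cubn with RIPC. These settings also called more of all genes. Without the filter 465 (without RIPC) and 471 (with RIPC) of 39528 genes were called. Of 25917 genes the Wald test called 1317 and 1013 in the same order, and apeglm 1114 and 1138. The fits that left out IRI control library 1 or 2 gave Lrp2 with RIPC log2 fold changes of −2.33 and −2.31. Those libraries are not in this contrast but share its estimate of the spread. Each of these fits held 1 IRI control library, and the filter by group then kept 32165 and 32130 genes in place of 25917.

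**Figure D2:**
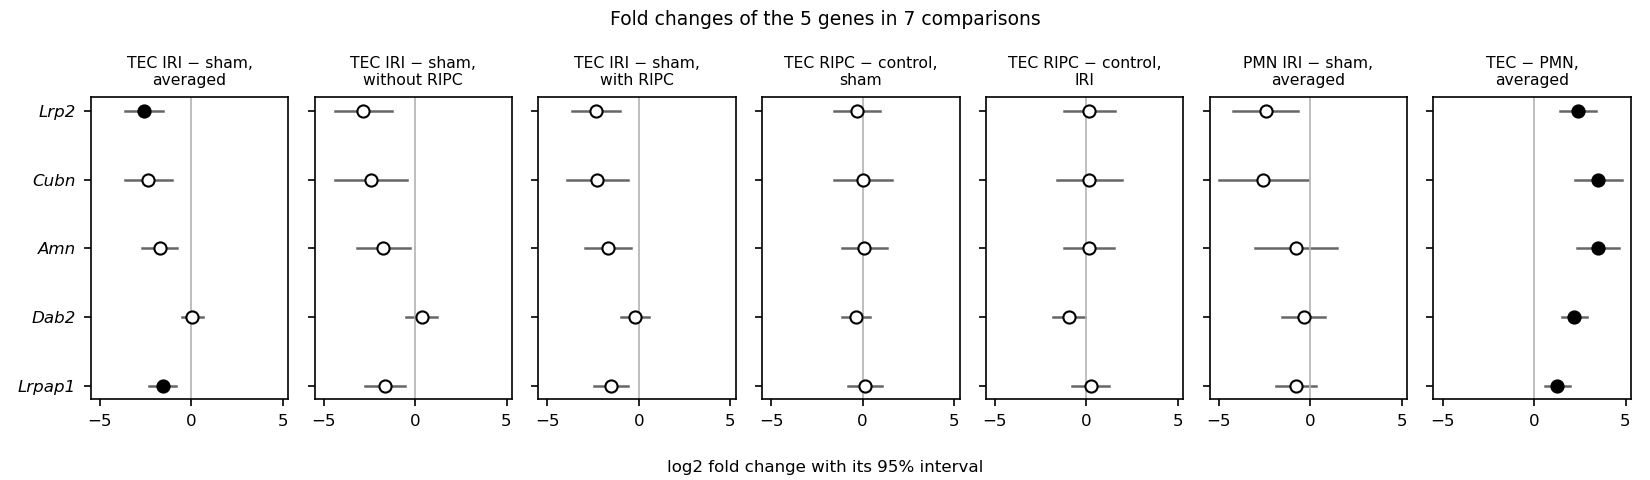
Log2 fold change (points) with its 95% confidence interval (bars) for each gene in the comparisons of the edgeR fits; a filled point marks an adjusted p under 0.05. For IRI against sham in TECs Lrp2 (−2.57) and Lrpap1 (−1.57) are filled, and for TECs against PMNs all 5 are.

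The second question was whether preconditioning altered the receptors in TECs. After sham surgery, RIPC against control gave log2 differences of −0.33 for Lrp2, 0.03 for Cubn, 0.10 for Amn, −0.38 for Dab2 and 0.13 for Lrpap1, with every adjusted p at 1.0 (edgeR) and 0.0% of all genes called. The interval for Lrp2 was −1.59 to 0.92 and that for Cubn −1.56 to 1.62. Differences within these intervals were therefore not excluded with 3 libraries against 3. After IRI the differences were 0.16 for Lrp2, 0.16 for Cubn, 0.13 for Amn and 0.22 for Lrpap1, all with adjusted p = 1.0, and 0.00386% of all genes were called. The value for Lrp2 was −0.65 with an offset for transcript length.

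Dab2 after IRI was the member with the widest gap between RIPC and control animals. Both IRI control libraries (1041 and 867 CPM) lay above the 3 IRI RIPC libraries (363 to 579 CPM), a separation not counted over all genes. The log2 difference was −0.96 (SE 0.40, interval −1.81 to −0.10), with an unadjusted p of 0.0311 and an adjusted p of 0.778 in edgeR, so it was not called. The test of whether RIPC altered the response to IRI gave −0.58 for Dab2 (adjusted p = 0.997) and 0.03 to 0.50 for the other 4 (adjusted p = 1.0), and 0.0% of all genes passed it.

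The transcripts of Dab2 were examined as well, in contrasts chosen after the transcript values had been seen. The p values of these contrasts, here and below, are therefore no independent test. How many other genes have transcript shares separated in this way was not counted. Gencode M21 lists 14 transcripts of Dab2. One set begins at an upstream first exon (chr15:6299788-6299899) and another at a downstream first exon (chr15:6386598-6386932), 86698 bases further on. Transcripts also differ in a coding exon of 654 bases (chr15:6429296-6429949), which adds 218 codons in frame. No listed transcript with the upstream first exon contains this exon, so its share and the first-exon share are not independent. The stretch this exon encodes holds binding sites for clathrin and for the AP2 adaptor, which the short form of the protein lacks. The 3 junctions that tell the forms apart are shown with 30 bases on each side, taken from Gencode transcripts on the plus strand of chromosome 15, with bases of the alternative exon in capitals.
entry into the exon (chr15:6424668-6424697 joined to chr15:6429296-6429325): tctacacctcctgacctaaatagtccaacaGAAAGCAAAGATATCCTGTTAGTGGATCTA
exit from the exon (chr15:6429920-6429949 joined to chr15:6430954-6430983): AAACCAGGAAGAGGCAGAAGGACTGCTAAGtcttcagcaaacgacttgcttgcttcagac
skipping of the exon (chr15:6424668-6424697 joined to chr15:6430954-6430983): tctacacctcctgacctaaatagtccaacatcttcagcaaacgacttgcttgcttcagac

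Reads were summed over whole transcripts, grouped by first exon, and not over the first exon alone. The share of Dab2 reads on transcripts with the upstream first exon, among transcripts with either first exon, was lower in IRI TECs. It was 30.2%, 47.4% and 32.1% in the sham control libraries and 33.4%, 43.2% and 44.7% in the sham RIPC libraries. After IRI it was 16.4% and 14.2% in the controls and 11.0%, 12.7% and 8.32% in the RIPC animals. No IRI library reached the lowest sham library. The means were 38.5 ± 7.40% (SD, n = 6) and 12.5 ± 3.08% (SD, n = 5), a difference of −26.0 percentage points (exact two-sided permutation test, p = 0.00433, the smallest that 6 against 5 libraries allow, and 0.00776 adjusted over the 8 tests made on Dab2 transcripts).

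The amounts behind this share were examined for each first exon. Upstream transcripts were at 180 to 379 CPM after sham and at 26.7 to 169 CPM after IRI, a difference of −1.68 in mean log2 CPM (exact permutation test, p = 0.00433, adjusted 0.00776). Downstream transcripts were at 287 to 509 CPM after sham and at 295 to 863 CPM after IRI, a difference of 0.47 (exact permutation test, p = 0.134, adjusted 0.179), which was 0.68 (exact permutation test, p = 0.0286) without IRI RIPC library 3. The downstream values were highest in the IRI controls, 863 and 738 CPM, and lowest in IRI RIPC library 3, in which 11.4% of the Dab2 reads went to transcripts with other starts, against at most 1.13% in the other TECs.

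The share with the alternative exon, which is not independent of the first-exon share, moved in the opposite sense. The share of reads on transcripts that contain it, among transcripts that contain or skip it, was 6.94%, 4.59% and 5.78% in the sham control TECs and 12.8%, 4.66% and 5.83% in the sham RIPC TECs. It was 20.8% and 15.5% in the IRI controls and 17.0%, 16.5% and 32.2% in the IRI RIPC libraries. All 5 IRI values exceeded all 6 sham values, and IRI RIPC library 3 stood above the other IRI libraries. The means were 6.77 ± 3.09% (SD, n = 6) and 20.4 ± 6.93% (SD, n = 5), 13.6 percentage points apart (exact permutation test, p = 0.00433, adjusted 0.00776). Over the repeats that each omitted 1 library the difference was 10.7 to 14.9 points.

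The same was seen in single transcripts. Dab2-201, which starts upstream and skips the exon, took 26.1 to 43.0% of the Dab2 reads in sham TECs and 0.0 to 11.9% after IRI. Dab2-203, which also skips the exon, took 36.1 to 56.9% and 53.1 to 66.0%, and Dab2-202, which contains it, 4.09 to 11.6% and 12.9 to 18.7%. Salmon assigns reads that several transcripts share by estimation, so these shares rest on its model.

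**Figure D3:**
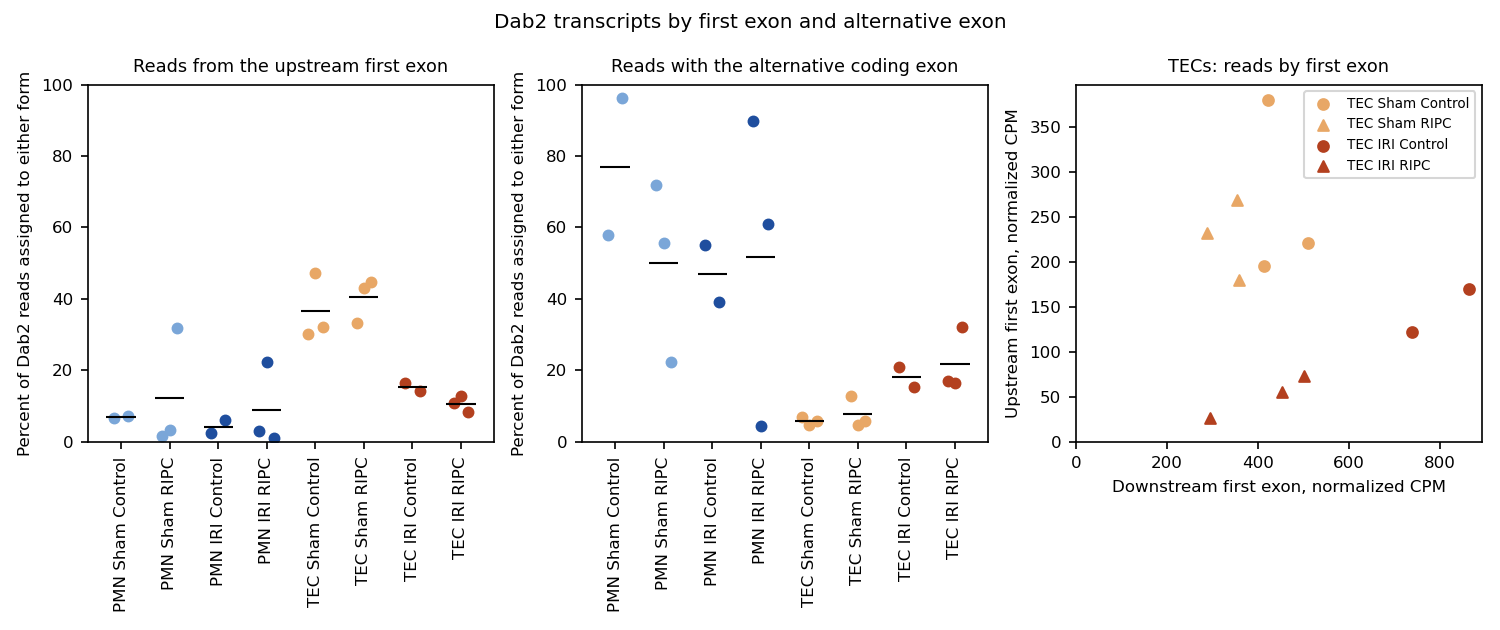
Share of Dab2 reads (%) on transcripts with the upstream first exon and share on transcripts with the alternative exon, 1 point per library, for sham and IRI in each cell type, with group means as lines. In TECs the sham and IRI points do not overlap in either share, and PMN points range from 1.11 to 31.9% for the first exon and from 4.38 to 96.2% for the alternative exon.

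For the other members 1 form led in most libraries. Lrp2-201 took at least 98.5% of Lrp2 reads in sham TECs and 86.3 to 99.9% after IRI, and Cubn-201 at least 93.2% of Cubn reads in every TEC library. Amn-201, the coding form, took 75.0 to 86.3% of Amn reads after sham and 33.8 to 92.7% after IRI, and most of the remainder went to the retained-intron form Amn-202, with 13.1 to 24.0% and 7.32 to 66.2%. Lrpap1-201 took 65.7 to 70.8% and 53.3 to 82.5% of Lrpap1 reads.

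The genes around the receptors were described by 8 lists, and in this comparison no listed gene outside the members was called as higher. Besides the 2 members, 5 of the 86 listed genes tested (5.81%) were called as lower, against 1.15% of all genes. The lists were chosen with earlier results of these data known, so this share is no test of them. The 5 genes were Folr1, the apical folate receptor, with a log2 fold change of −2.39 (adjusted p = 0.0129), Myo6, the motor that moves coated vesicles inwards, with −2.09 (adjusted p = 0.0468), the proton pump subunits Atp6v1a and Atp6v1e1 with −2.33 (adjusted p = 0.0123) and −1.59 (adjusted p = 0.0403), and Tcn2, the vitamin B12 carrier taken up by megalin, with −1.47 (adjusted p = 0.0410), all from edgeR.

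Other receptors gave few calls. Of the 11 further genes of the LDL receptor family none was called (median −0.51), and of 8 other endocytic receptors only Folr1 was (median −1.11). Havcr1, the injury-induced phosphatidylserine receptor KIM-1, had a log2 difference of 7.23 with an adjusted p of 0.0536 (edgeR), and among the sham libraries sham control library 1 was at 78.9 CPM and the other 5 at 0.0 to 1.02 CPM. Fcgrt, the receptor that recycles albumin and IgG, gave −0.60 (adjusted p = 0.556).

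Among 18 adaptor and coat genes only Myo6 was called (median −0.18). Among 23 tested genes of endosomes and their acidification 2 were called (median −0.63). Clcn5 and Ocrl, the genes of Dent disease, lie on the X chromosome and were tested in a fit that included it, with −2.48 (adjusted p = 0.313) and 0.67 (adjusted p = 0.628). Of 10 ligands 1 was called (median −0.37), and Lcn2, an injury-induced ligand of megalin, gave 6.73 (adjusted p = 0.0787).

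Of 3 vitamin D genes (median −2.66), 6 folding chaperones (median −1.24) and 7 transcription factors of the proximal tubule (median −1.74) none was called, although all 6 chaperones and all 7 factors had a negative value. Hnf4a, a factor of proximal tubule maturation, gave −1.74 (adjusted p = 0.101). None of the medians was tested against other genes.

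Markers of the tubule moved in the same comparison, and their part in the result was not tested. Of the 12 proximal tubule markers 6 were called as lower (Slc34a1, Slc5a12, Slc22a6, Slc13a3, Miox and Slc27a2). All 12 had a negative value, with a median of −2.44. Of 6 markers of injured tubule, Krt20 and Sox9 were called as higher. The list's summed level was 993 to 9562 CPM after sham and 4559 to 16269 CPM after IRI. The summed podocyte markers ran from 7.15 to 192 CPM after sham and from 7.32 to 1665 CPM after IRI. Neutrophil markers summed to at most 109 CPM and macrophage markers to at most 33.3 CPM in any TEC library.

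Across the 11 TEC libraries, which share the sham and IRI groups, 4 members followed the tubule markers. The correlation of log2 CPM with the log2 sum of the 12 markers was r = 0.91 for Lrp2, 0.95 for Cubn, 0.92 for Amn and 0.98 for Lrpap1, and −0.19 for Dab2. The members also followed each other, with r = 0.93 between Lrp2 and Amn and 0.95 between Cubn and Lrpap1, while Dab2 gave −0.14 to 0.01 with the other 4. These values are descriptions over n = 11 libraries in which the surgery groups differ.

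**Figure D4:**
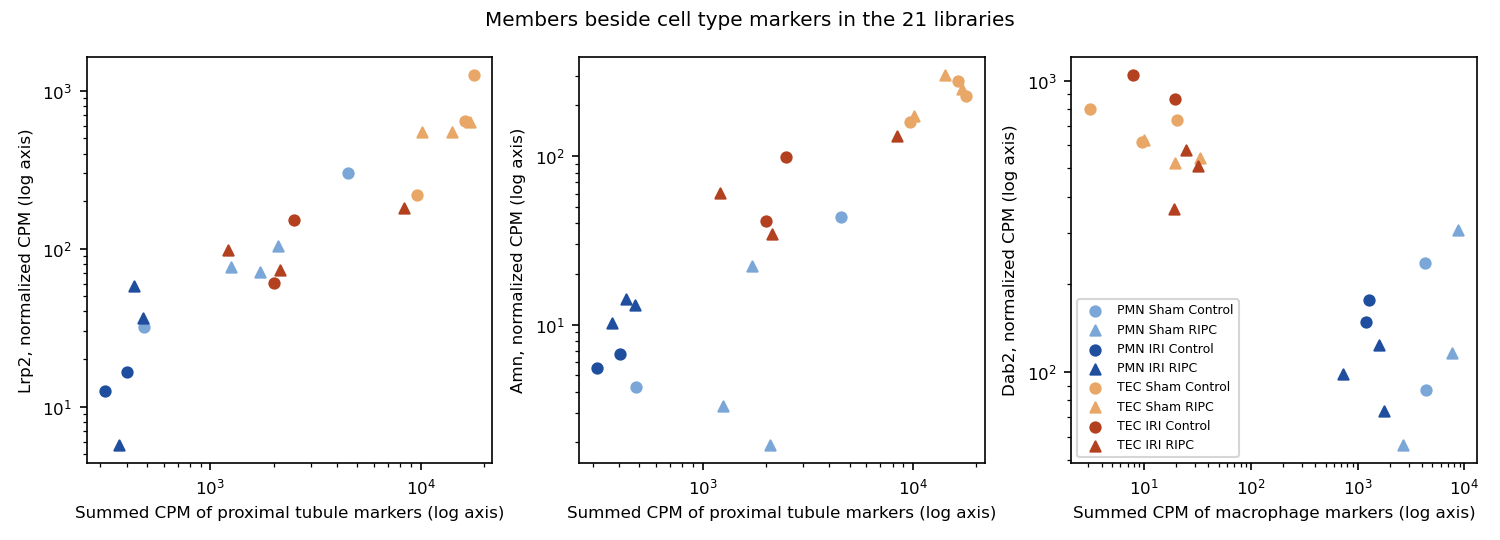
Level of a member (CPM, logarithmic axis) against a summed marker level (CPM, logarithmic axis), 1 point per library, by cell type and surgery. Lrp2 and Amn are drawn against the 12 proximal tubule markers, and Dab2 against the 8 macrophage markers. Over the 11 TEC libraries Lrp2 (r = 0.91) and Amn (r = 0.92) rise with the tubule marker sum.

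The genes whose levels over the 11 TEC libraries were most like each member differed between members. They were Id2, Glyctk and Ccser2 for Lrp2 (r = 0.97 each), Uap1l1, Uqcrfs1 and Dcxr for Cubn (0.98 to 0.99), Pepd, Slc2a2 and Gcnt1 for Amn (0.97 to 0.98) and Aspa, Fahd2a and Tinag for Lrpap1 (0.98 each). For Dab2 they were Lsm6, Nop10 and Snrpd2, with lower values of 0.92 to 0.94. These values include the difference between surgery groups. Over the 6 sham libraries alone the same genes gave r of 0.91 to 0.94 for Lrp2, 0.89 to 0.94 for Cubn, 0.61 to 0.83 for Amn, 0.83 to 0.89 for Lrpap1 and 0.85 to 0.88 for Dab2. Ranking by Spearman's rho kept 0 or 1 of the 3 genes for each member.

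The third question was how the members differed between the cell types. All 5 were higher in TECs than in PMNs, averaged over the 4 conditions, where 6.87% of 31769 genes were called and 3.95% were called as higher. The log2 differences were 3.52 for Amn (SE 0.55, adjusted p = 0.000285), 3.51 for Cubn (SE 0.62, adjusted p = 0.000995), 2.38 for Lrp2 (SE 0.47, adjusted p = 0.00280), 2.20 for Dab2 (SE 0.32, adjusted p = 0.000149) and 1.27 for Lrpap1 (SE 0.33, adjusted p = 0.0196), all from edgeR. Only Dab2 was higher in every TEC library than in every PMN library, which held for 0.283% of all genes. The call for Lrpap1 was lost without the filter on low counts (adjusted p = 0.0558, edgeR). It was also lost without PMN sham control library 1 (1.22), PMN IRI control library 1 (1.23) or 2 (1.36) or TEC IRI control library 1 (1.30). Each of these fits left 1 library in that group, and the filter by group kept 37217 to 37522 genes in place of 31769.

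Ordered by mean CPM, the 8 groups overlapped in most neighbouring pairs. For Lrp2 the sham TEC groups came first (706 and 579 CPM), followed by PMN sham control (167 ± 191 CPM, SD, n = 2), whose range overlapped that of the sham control TECs and of both IRI TEC groups (117 and 106 CPM) but not that of the sham RIPC TECs. For Cubn and Amn all TEC groups came before all PMN groups, with a gap only after the sham TECs. For Dab2 the IRI control TECs came first (954 ± 123 CPM, SD, n = 2), and the only other gap was that between the IRI RIPC TECs (484 CPM) and the highest PMN group (162 CPM). For Lrpap1 only the sham TECs stood clear, and PMN sham control (213 CPM) came before both IRI TEC groups.

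In PMNs the receptors themselves were detectable. Lrp2 was at 31.7 and 302 CPM in the sham controls, at 104, 71.5 and 77.0 CPM after sham with RIPC, at 16.6 and 12.6 CPM in the IRI controls and at 5.71, 36.3 and 57.7 CPM after IRI with RIPC. The highest value belonged to PMN sham control library 2, the PMN library with the most tubule markers. Cubn was at 6.75 to 37.4 CPM after sham and 0.392 to 13.7 CPM after IRI, and Amn at 1.93 to 43.3 and 5.52 to 14.1 CPM.

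Dab2 in PMNs was at 237 and 86.9 CPM in the sham controls, at 116, 307 and 56.3 CPM after sham with RIPC, at 148 and 176 CPM in the IRI controls and at 73.8, 124 and 98.4 CPM after IRI with RIPC. Lrpap1 was at 66.5 to 279 CPM after sham and 38.0 to 136 CPM after IRI. For both genes the sham and IRI ranges overlapped. Among the single groups, both IRI controls of Dab2 lay above the 3 IRI RIPC libraries, and both sham controls of Lrpap1 lay above all 5 IRI libraries. These separations rest on few libraries and were not counted over all genes.

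The tubule markers in these libraries give the scale of these values. In sham animals the PMN mean was 18.3% of the TEC mean for Lrp2, 9.33% for Cubn, 6.47% for Amn, 25.1% for Dab2 and 31.2% for Lrpap1. Over the 12 tubule markers this share ran from 3.84% to 52.6% with a median of 17.5%, a range that held all 5 members. In IRI animals it was 22.9% for Lrp2, 9.47% for Cubn, 13.5% for Amn, 18.5% for Dab2 and 52.0% for Lrpap1. Over the markers it was 6.56 to 38.5% (median 18.7%), so that Lrpap1 lay above them in these ratios of means. With medians in place of means Lrpap1 was at 58.4%, below Slc13a3 (114%) and Gatm (151%) and above the other markers. Over the 10 PMN libraries the log2 level of Lrp2 went with the summed tubule markers (r = 0.88, Spearman's rho = 0.93, and r = 0.75 without the 2 libraries farthest from the median). It also went with the distal tubule markers (r = 0.86, rho = 0.77, and r = 0.54 without the 2 farthest). With the proximal tubule markers Amn gave r = 0.30 and rho = 0.10. Lrpap1 gave r = 0.59 and rho = 0.62 with them, and r = 0.09 without the 2 farthest. Cubn gave r = 0.82 and rho = 0.82 with the macrophage markers and r = 0.58 and rho = 0.77 with the proximal tubule markers, and Dab2 gave r = −0.13 with the proximal tubule and 0.32 with the macrophage markers. The part of tubule or macrophage RNA in the PMN values was not tested.

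After IRI no member was called in PMNs, where 0.416% of genes were. The log2 differences were −2.45 for Lrp2 (unadjusted p = 0.0120, adjusted p = 0.329, edgeR), −2.56 for Cubn (0.0425 and 0.413), −0.78 for Amn, −0.37 for Dab2 and −0.79 for Lrpap1. In the DESeq2 Wald test, which called 1955 of 25002 genes, the adjusted p of Lrp2 was 0.0336. All 12 tubule markers also had a negative value in this comparison (median −2.36, none called), and their sums were 485 to 4533 CPM after sham and 316 to 479 CPM after IRI. Macrophage marker sums were 2634 to 8764 CPM after sham and 725 to 1775 CPM after IRI.

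RIPC gave no called member in PMNs. After sham surgery the differences ran from −1.39 for Amn to −0.03 for Dab2, with adjusted p values of 0.886 to 1.0 (edgeR) and 0.004% of genes called. After IRI they ran from −0.76 for Dab2 to 1.23 for Cubn, with every adjusted p at 1.0 and 0.0% of genes called. The effect of IRI in TECs minus that in PMNs was −0.09 for Lrp2, 0.24 for Cubn, −0.91 for Amn, 0.44 for Dab2 and −0.76 for Lrpap1 (adjusted p of 0.907 to 1.00, edgeR), and 0.0% of genes were called in that test. The interval for Lrp2, −1.93 to 1.75, was wide.

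Dab2 transcripts also differed between the cell types. The share on transcripts with the upstream first exon was 26.7 ± 14.7% (SD, n = 11) in TECs and 8.57 ± 10.2% (SD, n = 10) in PMNs (exact permutation test, p = 0.00485, adjusted 0.00776). The ranges overlapped, since PMN sham RIPC library 3 reached 31.9% and PMN IRI RIPC library 2 reached 22.3%. Transcripts with other starts are left out of this share. They took 11.1 ± 7.31% (SD, up to 23.3%) of the Dab2 reads in PMNs and 1.61 ± 3.25% in TECs. The share with the alternative exon was 13.0 ± 8.64% in TECs and 55.3 ± 28.1% in PMNs (exact permutation test, p = 0.000244, adjusted 0.00195), and ran from 4.38 to 96.2% in PMNs. Between sham and IRI the PMN share on transcripts with the upstream first exon differed by −3.22 points (exact permutation test, p = 0.532). The share with the alternative exon was 60.8 ± 26.8% after sham and 49.8 ± 31.3% after IRI (SD, n = 5 each, exact permutation test, p = 0.548).

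Of 87 tested genes of the 8 lists around the receptors, 16 (18.4%) were called as higher in TECs and 8 (9.20%) in PMNs. Because the lists were chosen with earlier results of these data known, these shares are no test of them. Calls were made for 4 of 8 other endocytic receptors, 2 of 11 genes of the LDL receptor family, 3 of 18 adaptor and coat genes, 2 of 23 endosomal genes, 7 of 11 ligands, 2 of 3 vitamin D genes and 4 of 7 transcription factors, against 6.87% of all genes. TECs were higher for Folr1 (2.30), Havcr1 (6.64), Fcgrt (1.19) and Igf2r among other endocytic receptors, for Myo6 (3.18) and Ap2m1 (1.00) among adaptors, and for Atp6v1b2 (1.89) among endosomal genes. They were also higher for Cyp27b1 (8.09) and Cyp24a1 (6.94), the enzymes that make and break down active vitamin D, and for the factors Hnf4a (4.99) and Ppara (4.69).

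PMNs were higher for Lrp1 (log2 difference −5.29), the broad scavenger receptor of the megalin family, Sorl1 (−3.62), Picalm (−1.37) and Rab32 (−4.07). Of 11 ligands, Ttr (2.48), Tcn2 (1.37) and Selenop (1.44) were higher in TECs, and Lcn2 (−6.43), Apoe (−3.69), B2m (−2.30) and Cst3 (−2.38) in PMNs. No folding chaperone was called (6 tested). Of the 12 tubule markers 8 were higher in TECs, and all 9 neutrophil and 7 of 8 macrophage markers were higher in PMNs.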

How the data were processed

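The authors trimmed single-end reads with Trim Galore 0.6.4 and quantified them with Salmon 1.0.0 against mouse transcripts (mm10, Gencode vM23 in the methods), with FastQC, MultiQC and DESeq2 also named in their processing notes. cDNA was primed at the poly(A) tail, amplified with a template switch and carried no molecular identifiers. The deposited values were estimated counts, TPM and effective lengths per transcript, with 2 files per library. The labels do not say how the 2 files differ. Their counts agreed more closely than independent reads would (median chi-square per gene 0.0107 to 0.0484 against 0.455), so they were added and counted as 1 library. The deposited TPM values were used to compare genes, and the authors' effective lengths, deposited with the counts, only for an offset.

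Gene totals were formed by adding the estimated counts of all transcripts that Gencode M21 (GRCm38) gives a gene, which left 0.139 to 0.255% of reads unmatched, and were rounded. Genes were tested in edgeR 4.0.16 (R 4.3.3, limma 3.58.1) with TMM, filterByExpr by group and the quasi-likelihood F test. The fits held 11 TEC libraries (25917 genes), 10 PMN libraries (25002 genes) or all 21 (31769 genes), without sex-chromosome and mitochondrial genes. Cblif was matched by its older symbol. The steps were tested on simulated counts. Dab2 transcript shares were compared by exact permutation over libraries.

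The members and all lists were chosen with earlier results of these data known. Genes were named by a fixed rule: the members, further pathway genes (Fcgrt, Havcr1, Lcn2, Clcn5, Ocrl and Hnf4a), and, for IRI in TECs and TECs against PMNs, up to 3 genes per list and direction with the smallest adjusted p under 0.05. The 3 most alike genes per member were ranked by Pearson's r of log2(CPM + 1). Igf2r, B2m and the tubule markers are named beyond this rule, and some genes within it are not reported here. The study describes the libraries of a group as biological replicates, while the labels name no animals, so whether PMN and TEC libraries share an animal is not known here, and no batch is given. Within a cell type, the deviations of libraries with the same replicate number correlated at no more than 0.139, and pairing between PMN and TEC libraries was not examined. Alternatives were DESeq2 1.42.0 (with apeglm 1.24.0) and its size factors, no filter on low counts, each file alone, a length offset, the sex-chromosome and mitochondrial genes included, a replicate block and leaving out each library. Depth was 20881334 to 51624602 reads per library, and precision was limited by the 2 or 3 libraries per group.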

Additional observations from a re-analysis of the deposited data

How the results depend on the processing

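For the 5 members the directions of Lrp2, Cubn, Amn and Lrpap1 for IRI in TECs, and of all 5 for TECs against PMNs, were the same under every alternative run, but several calls were not. Without the filter on low counts, Cubn (−2.35) and Amn (−1.71) passed for IRI in TECs and Lrpap1 (1.25) no longer passed for TECs against PMNs. With the DESeq2 Wald test, Cubn (−2.26) and Amn (−1.58) passed. Counts of genes past the threshold depended most on the tool and the filter, and the cause was not tested. They are given in the order IRI in TECs averaged (363 in the edgeR fit), without RIPC (1), with RIPC (25), RIPC after sham (0) and after IRI (1) in TECs, their interaction (0), IRI in PMNs (104), RIPC after sham (1) and after IRI (0) in PMNs, and the effect of IRI in TECs against PMNs (0). Without the filter they were 1289, 465, 471, 54, 71, 84, 971, 139, 18 and 722. With the DESeq2 Wald test they were 2234, 1317, 1013, 425, 699, 597, 1955, 813, 429 and 2395, and for TECs against PMNs 5379 in place of 2182. At an unadjusted p under 0.05 the edgeR fits that called 0 genes held 1175 (RIPC after sham in TECs), 1869 (interaction), 680 (RIPC after IRI in PMNs) and 3102 (IRI in TECs against PMNs). With apeglm shrinkage and an s value under 0.01 the count was 1114 without RIPC, 1138 with RIPC, 62 and 246 for RIPC in TECs after sham and IRI, and 528 and 40 for RIPC in PMNs. IRI without RIPC gave 8 genes with the size factors of DESeq2, 12 with the length offset and 0 with the second file alone, and IRI with RIPC 11 with the length offset. The first file alone gave 2 genes for RIPC after IRI in TECs, the second file alone 0 for RIPC after sham in PMNs, and either file alone 1 gene for the effect of IRI in TECs against PMNs.

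Within each cell type, the deviations from the group means of libraries with the same replicate number correlated at −0.106 to 0.139 in TECs and −0.0234 to 0.0304 in PMNs. Libraries with different numbers gave −0.121 to 0.0758 and −0.0304 to 0.0297. PMN libraries were not correlated with TEC libraries, so pairing between the cell types was not examined. With the replicate block, 404 genes were called for IRI in TECs, 27 without and 49 with RIPC, 3 for RIPC after IRI in TECs, 23 for IRI in PMNs and 0 for RIPC after sham in PMNs. Among the members the block ended the call of Lrpap1 for IRI in TECs (−1.54) and changed no other call. It turned the sign of values that were not called, not all of them near 0. In TECs these were Dab2 for IRI (−0.0023), and Lrp2 (−0.13), Cubn (−0.20) and Amn (−0.11) for RIPC after IRI. For the interaction they were Cubn (−0.26), Amn (−0.29) and Lrpap1 (−0.11). In PMNs they were Amn for IRI (0.12) and Cubn for RIPC after sham (0.073). The last was Lrp2 for IRI in TECs against PMNs (0.087).

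Other sign changes were all in values far from the threshold. For RIPC after sham in TECs, Cubn was −0.018 with the size factors of DESeq2 and with its Wald test, −0.022 with the length offset and −0.00021 with apeglm. With the length offset, RIPC after IRI in TECs gave −0.65 for Lrp2, −0.19 for Amn and −0.027 for Lrpap1, and the interaction gave −0.35, −0.37 and −0.23 for the same genes. For RIPC after sham in PMNs, Dab2 was 0.059 with the size factors and with the Wald test and 0.037 with apeglm.

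Leaving out each library in turn gave 92 to 714 genes for IRI in TECs, 0 to 133 without RIPC, 4 to 215 with RIPC, 0 to 6 and 0 to 22 for RIPC in TECs after sham and IRI, 0 to 15 for the interaction, 13 to 393 for IRI in PMNs, 0 to 11 for RIPC after sham in PMNs and 0 to 124 for the effect of IRI in TECs against PMNs. For IRI in TECs the members ranged from −2.97 to −2.17 (Lrp2), −2.91 to −2.08 (Cubn), −2.08 to −1.49 (Amn), −0.027 to 0.17 (Dab2) and −1.74 to −1.43 (Lrpap1), and Dab2 with RIPC from −0.41 to 0.0080. RIPC in TECs after sham gave −0.85 to 0.43 (Lrp2), −0.30 to 0.36 (Cubn), −0.16 to 0.29 (Amn) and −0.11 to 0.29 (Lrpap1). After IRI it gave −0.32 to 0.95 (Lrp2), −0.88 to 1.28 (Cubn), −0.48 to 0.87 (Amn) and −0.13 to 0.51 (Lrpap1). The interaction gave −0.27 to 1.28 (Lrp2), −0.85 to 1.24 (Cubn), −0.53 to 0.76 (Amn) and −0.21 to 0.38 (Lrpap1). IRI in PMNs gave −1.21 to 0.53 for Amn and −0.57 to 0.14 for Dab2. RIPC after sham in PMNs gave −1.91 to 1.42 (Lrp2), −1.02 to 0.17 (Cubn), −3.21 to 1.10 (Amn), −0.90 to 0.84 (Dab2) and −1.02 to 0.0023 (Lrpap1), and after IRI −0.23 to 3.86 for Cubn. Lrpap1 in TECs against PMNs ranged from 1.17 to 1.40. The effect of IRI in TECs against PMNs gave −1.44 to 0.27 (Lrp2), −0.42 to 1.44 (Cubn) and −0.10 to 0.64 (Dab2). Of the Dab2 transcript results, the alternatives of which were chosen after seeing the data, the PMN differences ranged from −7.05 to 2.21 points (upstream first exon) and −20.9 to 0.397 points (alternative exon), and the downstream log2 CPM in TECs from 0.29 to 0.68. Fits that left 1 library in a group also tested more genes, as the filter goes by group (for TECs 32165 and 32130 in place of 25917). No group had 4 or more libraries, so no library was tested as an outlier, and 10 differences between effects were tested with none past the threshold.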
